A study of Arabidopsis thaliana with 54 samples.

Results

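The genes described here make and move glucosinolates in Arabidopsis thaliana. They were taken by their AGI identifiers as 37 of the 33610 genes in each count file: 23 of the aliphatic pathway, 9 of the indolic pathway, 3 core enzymes used by both and the transporters GTR1 (AT3G47960) and GTR2 (AT5G62680). The rule goes by pathway and identifier and uses no measured value. All 37 were found in every file. In roots 35 of them passed the filter on low counts, which left out MYB29 (AT5G07690) and MYB76 (AT5G07700), and in rosettes 36 passed, which left out MYB122 (AT1G74080).

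The series measured mRNA by sequencing in roots and rosettes of hydroponically grown plants, as 54 libraries in 18 groups of 3. Wild-type Col-0 was set beside spl7, the insertion line SALK_109908c, which lacks normal function of SPL7, the transcription factor that switches on copper uptake genes. All plants were raised with 25 µM iron. Copper before the treatments was 0.1 µM for Col-0 and a rescuing 2.5 µM for spl7. Each genotype was then held for 3 days on 1 of 4 solutions: the control (25 µM iron, 0.5 µM copper), no copper, no iron, or neither metal. A second spl7 control had been raised on 0.1 µM copper, like Col-0, before the same control solution, and its titles alone carry the letters Ex, whose meaning the labels do not give. A contrast of genotypes under iron deficiency is thus at the same time a contrast of earlier copper supplies, 2.5 against 0.1 µM. Plants shared containers, and the labels do not say whether replicates came from separate ones, so p-values measure the spread between the libraries of a group, which may be partly technical.

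Glucosinolates are sulfur-rich thioglucosides that defend Brassicales against herbivores and microbes after myrosinases cleave them. The aliphatic ones start from methionine, whose side chain is lengthened in the chloroplast before the amino acid is converted by CYP79F and CYP83A1 (AT4G13770) enzymes. The indolic ones start from tryptophan, which CYP79B2 (AT4G39950), CYP79B3 (AT2G22330) and CYP83B1 (AT4G31500) convert. MYB28 (AT5G61420), MYB29 and MYB76 activate the aliphatic branch, and MYB34 (AT5G60890), MYB51 (AT1G18570) and MYB122 the indolic branch. GTR1 and GTR2 import glucosinolates into cells and load them into the phloem.

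Libraries held 9254761 to 17277379 counts in roots and 11694883 to 20061836 in rosettes. The 37 genes took 0.351 to 0.639% of the counts of a root library and 0.379 to 0.849% of those of a rosette library. SPL7 itself stood at 23 to 28.9 CPM (counts scaled to a common library size) in the 15 spl7 root libraries against 58.3 to 77.8 CPM in the 12 Col-0 ones, and at 9.05 to 18.3 against 23.5 to 30.8 CPM in rosettes. The line thus kept some SPL7 reads, and its libraries did not overlap with those of Col-0. The 5 leaf markers together reached 17800 to 40000 CPM in rosettes and 18.1 to 186 CPM in roots, and the 6 root markers 767 to 1940 CPM in roots and 27.2 to 59 CPM in rosettes. Replicate 3 of iron-free spl7 roots stood apart from the other replicates in many of the genes below, and the counts of the 37 genes called in roots are given without it too where it moves them. In several genes it stood among the spl7 roots without both metals. MAM1 stood at 295 CPM in it and 261 to 305 CPM in that group, GSTU20 at 24.3 and 21.3 to 26.1 CPM. The root marker NRT2.1 stood at 68.47 and 60.85 to 76.21 CPM. IGMT1 (266 against 207 to 231 CPM) and MYB51 (42.6 against 29.55 to 37.06 CPM) lay above that group. The reason was not tested.

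Neighbouring gene copies at 2 loci stood in opposite order in the organs, and for the CYP79F pair the 300 bases before each annotated start are shown because the copies differ there more than in their coding sequence. CYP79F2 (AT1G16400) and CYP79F1 (AT1G16410) lie 1183 bases apart on chromosome 1, and MAM1 (AT5G23010) and MAM3 (AT5G23020) 11144 bases apart on chromosome 5, with no protein-coding gene between them. The windows are on the plus strand of TAIR10.1 (RefSeq) at chr1:5608382-5608681 and chr1:5604744-5605043, written 5′ to 3′. Capitals mark matches on either strand to GTAC, the core of the copper response element that SPL7 binds, or to ACCNANC, an AC element of the kind bound by plant MYB factors; CACGTG, the G-box bound by MYC factors, was searched too and had no match in either window.
CYP79F1: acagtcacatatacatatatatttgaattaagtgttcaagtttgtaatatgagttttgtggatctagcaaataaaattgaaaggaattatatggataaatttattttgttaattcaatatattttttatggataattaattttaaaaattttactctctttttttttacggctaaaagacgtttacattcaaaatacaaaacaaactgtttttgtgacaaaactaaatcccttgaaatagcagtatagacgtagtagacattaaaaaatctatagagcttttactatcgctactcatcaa
CYP79F2: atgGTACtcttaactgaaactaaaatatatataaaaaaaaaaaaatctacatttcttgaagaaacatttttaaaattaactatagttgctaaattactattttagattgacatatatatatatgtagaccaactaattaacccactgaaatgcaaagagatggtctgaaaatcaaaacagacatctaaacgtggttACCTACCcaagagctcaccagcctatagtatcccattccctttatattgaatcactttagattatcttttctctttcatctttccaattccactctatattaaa
The CYP79F windows were identical at 47.8% of alignment columns against 90.7% for the coding sequences. GTAC occurred in the same window of 16 of the 23 aliphatic genes (69.6%), 5 of the 9 indolic genes (55.6%) and none of the 5 shared and transport genes, against 39.7% of 27443 protein-coding genes. ACCNANC occurred before 8 aliphatic and 4 indolic genes against 31.9% of all genes, and CACGTG before 2 aliphatic genes and no indolic gene against 7.09%. Matches of different motifs were counted also where they overlapped. These are letter matches, and no binding was measured.

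In unstressed Col-0, indolic genes were higher in roots and most aliphatic genes higher in rosettes. Levels in this comparison are CPM scaled over both organs together. Of the 37 genes, 13 were called higher and 20 lower in roots than in rosettes (edgeR quasi-likelihood test, Benjamini-Hochberg adjusted p below 0.05 over all genes, the rule for every call here), against 77.9% of all 22078 genes called (40.8% higher, 37.2% lower). Most genes of any kind thus differed between the organs, and the branches differed in direction. All 9 indolic genes were higher in roots, with a median log2 difference of 1.56, while 18 of 23 aliphatic genes were lower there, with a median of -1.01, and the median of all genes was 0.05. In bulk tissue, fewer cells of a type and less RNA per cell cannot be told apart.

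The CYP79F genes, which make the aldoximes of the aliphatic branch, exchanged places between the organs. CYP79F1 stood at 503 CPM in rosettes and 0.557 CPM in roots (means of 3), 891-fold lower in roots (log2 difference -9.80 ± 0.36, standard error). CYP79F2 stood at 7.72 CPM in rosettes and 142 CPM in roots, 18.6-fold higher in roots (4.22 ± 0.16). On the scale of root libraries alone, used from here on for roots, CYP79F1 stood at 1.17, 0.538 and 0.231 CPM beside summed leaf markers of 91.7, 75.6 and 53.2 CPM in the same libraries, and the part of leaf RNA in these counts was not tested. The longest run of coding sequence that both genes share is 100 bases, and a read inside it could be counted for either copy.

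The MAM genes, whose enzymes condense methionine-derived acids with acetyl-CoA to lengthen the chain, also changed order, although MAM1 stayed well expressed in roots. MAM3 was 55.2-fold higher in roots (536 against 9.73 CPM, log2 difference 5.79 ± 0.20), and MAM1 was 2.99-fold lower there (194 against 579 CPM, -1.58 ± 0.17). The other chain elongation genes differed less. BCAT4 (AT3G19710), the aminotransferase that starts elongation, stood at 260 CPM in roots and 280 in rosettes and was not called. BCAT3 (AT3G49680), BAT5 (AT4G12030) and IPMI2 (AT2G43100) were lower in roots by log2 differences of -1.90, -0.77 and -0.77, and IIL1 (AT4G13430), IPMI1 (AT3G58990) and IMD1 (AT5G14200) differed by 0.21, -0.30 and -0.29, calls that were each lost under at least 3 of the other settings tried.

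Among regulators and side-chain genes of the aliphatic branch, MYB29, MYB76, FMOGS-OX1 (AT1G65860), FMOGS-OX3 (AT1G62560) and AOP2 (AT4G03060) were far lower in roots than in rosettes, and MYB28 was less so. MYB28 stood at 70.0 CPM in roots and 123 in rosettes (log2 difference -0.81 ± 0.12). MYB29 stood at 0.119 and 79.8 CPM, and MYB76 had no count in the 3 root libraries and 5.52 CPM in rosettes. A count of 0 allows up to 0.227 CPM by counting error alone, taken as 3 counts over the unscaled size of a root library. FMOGS-OX1 and FMOGS-OX3, which oxidise the sulfur of the side chain, were 39.1-fold and 59.8-fold lower in roots, AOP2 was 85.1-fold lower and the glutathione transferase gene GSTU20 (AT1G78370) 46.3-fold lower. UGT74C1 (AT2G31790), a glucosyltransferase gene of the branch, was 2.55-fold lower there and CYP83A1 2.53-fold. Side-chain genes outside the 37 did not all follow: FMOGS-OX4 was higher in roots (46.2 against 23.8 CPM), FMOGS-OX5 was not called (48.8 against 52.7 CPM) and GS-OH was 1.49-fold lower there. AOP2 is annotated as a pseudogene in Col-0, so its reads do not stand for an active enzyme.

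Among indolic genes the largest differences between organs were those of MYB122 and of the late ring-modifying genes IGMT1 (AT1G21100) and CYP81F2 (AT5G57220). MYB122 stood at 4.81 CPM in roots and 0.025 CPM in rosettes, MYB51 was 4.65-fold higher in roots (52.3 against 11.3 CPM) and MYB34 2.05-fold higher (46.0 against 22.4 CPM). IGMT1, a methyltransferase that acts on the indole ring, was 117-fold higher in roots (194 against 1.66 CPM), and CYP81F2, which hydroxylates that ring, 11.0-fold higher. IGMT1 shares 10.4% of its 50-base exon words with other places in the genome, so part of its count depends on how the authors' counting treated such reads. The core genes CYP79B2, CYP79B3 and CYP83B1 were 2.82-fold, 2.95-fold and 2.02-fold higher in roots. GTR1 was 3.14-fold lower in roots and GTR2 1.44-fold higher.

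**Figure D1:**
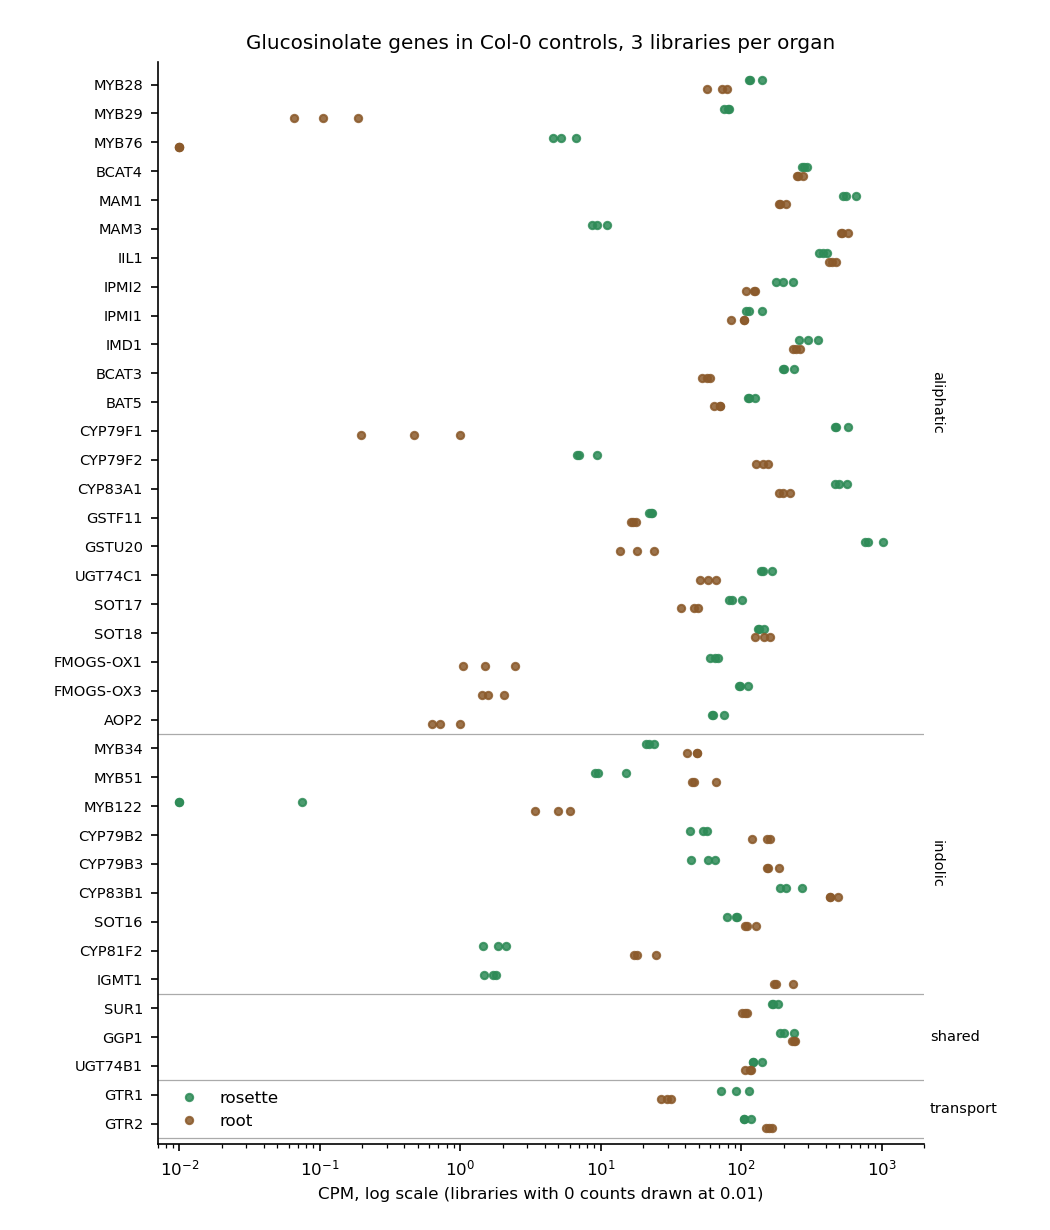
CPM on a log axis of the 37 genes in the 3 root and 3 rosette libraries of the Col-0 control, with groups of genes set apart by lines. CYP79F1 and CYP79F2, and MAM1 and MAM3, change order between the organs, and all 9 indolic genes lie further right in roots than in rosettes.

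Scaled by exon length, the aliphatic genes with the highest control levels were MAM3 in roots (293 ± 18.8 CPM per kb, SD, n = 3) and GSTU20 in rosettes (749 ± 122 CPM per kb). CYP83B1 was the highest indolic gene in both organs (236 ± 19.2 in roots, 117 ± 21.8 CPM per kb in rosettes). These lengths are merged exons of the RefSeq annotation.

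Iron deficiency lowered the aliphatic branch in Col-0 roots, and most in chain elongation. Of 21 aliphatic genes tested 11 fell and none rose, of 9 indolic genes 2 fell, and of all 35 tested 13 fell and 1 rose, against 20.4% of all genes called (9.94% higher, 10.4% lower). The median log2 change was -0.44 over the aliphatic genes, -0.09 over the indolic genes and 0.01 over all genes. Of 9 chain elongation genes 8 fell. The ninth, BCAT3, which acts also in amino acid metabolism and late in elongation, stood at 59.7 to 71.1 CPM in the controls and 66.1 to 72.8 CPM without iron.

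MAM1 stood at 221, 211 and 244 CPM in the Col-0 control and at 89.8, 92.4 and 84.2 CPM without iron. That is a 2.53-fold fall (log2 change -1.34 ± 0.21, adjusted p = 0.000299). MAM3 stood at 605, 585 and 677 CPM in the control and at 297, 287 and 250 CPM without iron (-1.16 ± 0.15, adjusted p = 5.68e-05). In both genes every iron-free library lay below every control library, with a wide gap.

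BCAT4 stood at 296, 286 and 326 CPM in the control and at 153, 143 and 135 CPM without iron (-1.08 ± 0.12, adjusted p = 1.17e-05). CYP83A1, which oxidises the aldoximes, stood at 230, 212 and 260 CPM and at 118, 128 and 108 CPM (-0.99 ± 0.12, adjusted p = 5e-05). BAT5, the plastid transporter of the elongating acids, fell from 79.5 to 47.2 CPM (-0.75 ± 0.14). Again no iron-free library reached a control library.

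The other aliphatic falls were smaller, from -0.55 in CYP79F2 to -0.44 in GSTF11 (AT3G03190), and covered the isomerase subunits IIL1, IPMI1 and IPMI2 and the dehydrogenase IMD1. MYB28, the main activator of the branch, did not follow: it stood at 92.5, 65.3 and 86.4 CPM in the control and at 90.9, 94.6 and 84.5 CPM without iron, overlapping groups. The side-chain genes and the sulfotransferases SOT17 (AT1G18590) and SOT18 (AT1G74090) were not called. On the indolic side CYP79B3 fell (-0.70 ± 0.18) while its partner CYP79B2 stood at 139, 182 and 180 CPM against 161, 175 and 152 CPM. MYB51 fell from 51.9, 75.8 and 54.2 CPM to 44.4, 40.4 and 32.4 CPM (-0.64 ± 0.21, adjusted p = 0.0369). The glucosyltransferase gene UGT74B1 (AT1G24100), one of the 3 core genes used by both branches, rose by 0.32 ± 0.10. The count of 14 dropped to 9 without replicate 3 of iron-free Col-0 roots, when IPMI1, IPMI2, GSTF11, MYB51 and CYP79B3 were no longer called. IGMT1 stood at 205, 267 and 202 CPM in the control and at 128, 96.3 and 74.3 CPM without iron, groups that did not overlap, and was not called (-1.17 ± 0.58, adjusted p = 0.149). A fit without replicate 3 of iron-free spl7, which is outside this comparison and sets part of the shared spread, called 19 genes, 18 lower and 1 higher, against 31.4% of all genes. The falls were then 13 aliphatic, 4 indolic and 1 shared, with IGMT1 (-1.18 ± 0.17), CYP83B1 (-0.27 ± 0.09), UGT74C1, SOT18 and GGP1 (AT4G30530) added.

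The aliphatic fall was not seen when copper was missing as well. With neither metal none of the 21 aliphatic genes was called by edgeR (7 at an unadjusted p below 0.05; 2 by the DESeq2 Wald test), and their median log2 change was 0.22. MAM1 stood at 256, 267 and 278 CPM, all above the highest control library, and CYP83A1 at 285, 301 and 314 CPM, also above the controls, although neither change was called. MYB51 (-0.84 ± 0.21), CYP81F2 (-1.04 ± 0.30) and GTR1 (-0.44 ± 0.12) fell, 3 of 35 genes against 4.69% of all genes called (1.61% higher, 3.08% lower). MYB51 stood at 31.6, 33.0 and 36.9 CPM and GTR1 at 28.3, 23.9 and 23.0 CPM against 34.5, 36.3 and 31.4 CPM in the control, without overlap in either. These 3 calls were lost when replicate 2 of the Col-0 control, or any replicate of the doubly deficient group, was left out. Without replicate 3 of iron-free spl7, a library outside this comparison that sets part of the shared spread, 11 genes were called, 8 of them higher, 7 of these aliphatic, against 12.9% of all genes.

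Copper deficiency by itself gave no call in Col-0 roots among the 35 genes (edgeR; 12 at an unadjusted p below 0.05; 1 by the DESeq2 Wald test), against 0.0733% of all genes called (0.0489% higher, 0.0244% lower). The aliphatic median was 0.35. BCAT4 stood at 397, 356 and 433 CPM, above all 3 controls, and was not called. Without replicate 3 of iron-free spl7 there were 4 calls, all aliphatic and higher (BCAT4, IPMI1, CYP79F2 and SOT18), against 1.31% of all genes, and without replicate 1 of copper-free Col-0 there was 1.

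Other pathway genes of iron-free Col-0 roots moved in both directions, and their counts stand beside the 20.4% of all genes called (9.94% higher, 10.4% lower). Of 7 further regulators 4 fell and 1 rose, with SDI1, a repressor of aliphatic synthesis under sulfur limitation, IQD1, a calmodulin-binding regulator, and MYC2 at -1.61 ± 0.32, 0.59 ± 0.12 and -0.50 ± 0.13. Of 13 further synthesis genes tested 2 rose and 1 fell, a share near that background: CYP81F3, an indole-ring hydroxylase, rose by 1.08 ± 0.15, and GS-OH, which hydroxylates an alkenyl side chain, fell by 0.89 ± 0.16. GTR3, a transporter related to GTR1 and GTR2, fell by 0.41 ± 0.10, and none of 5 genes of sulfate activation, tryptophan and glutathione supply was called.

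The difference between the double deficiency and the sum of the single ones was itself tested in Col-0 roots. It was called for 6 of the 35 genes, all positive, against 2.89% of all genes (1.44% positive, 1.45% negative): MAM1 (1.54 ± 0.29), CYP83A1 (1.16 ± 0.18), MAM3 (1.08 ± 0.21), CYP79B3 (1.08 ± 0.25), BAT5 (0.86 ± 0.19) and BCAT4 (0.81 ± 0.16). A positive value means a level without both metals above what the single deficiencies add up to. Leaving out replicate 3 of iron-free spl7 gave 12 calls, 11 of them positive, among them all 6, against 14.4% of all genes. This contrast shares the Col-0 control and iron-free libraries with the comparisons above.

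**Figure D2:**
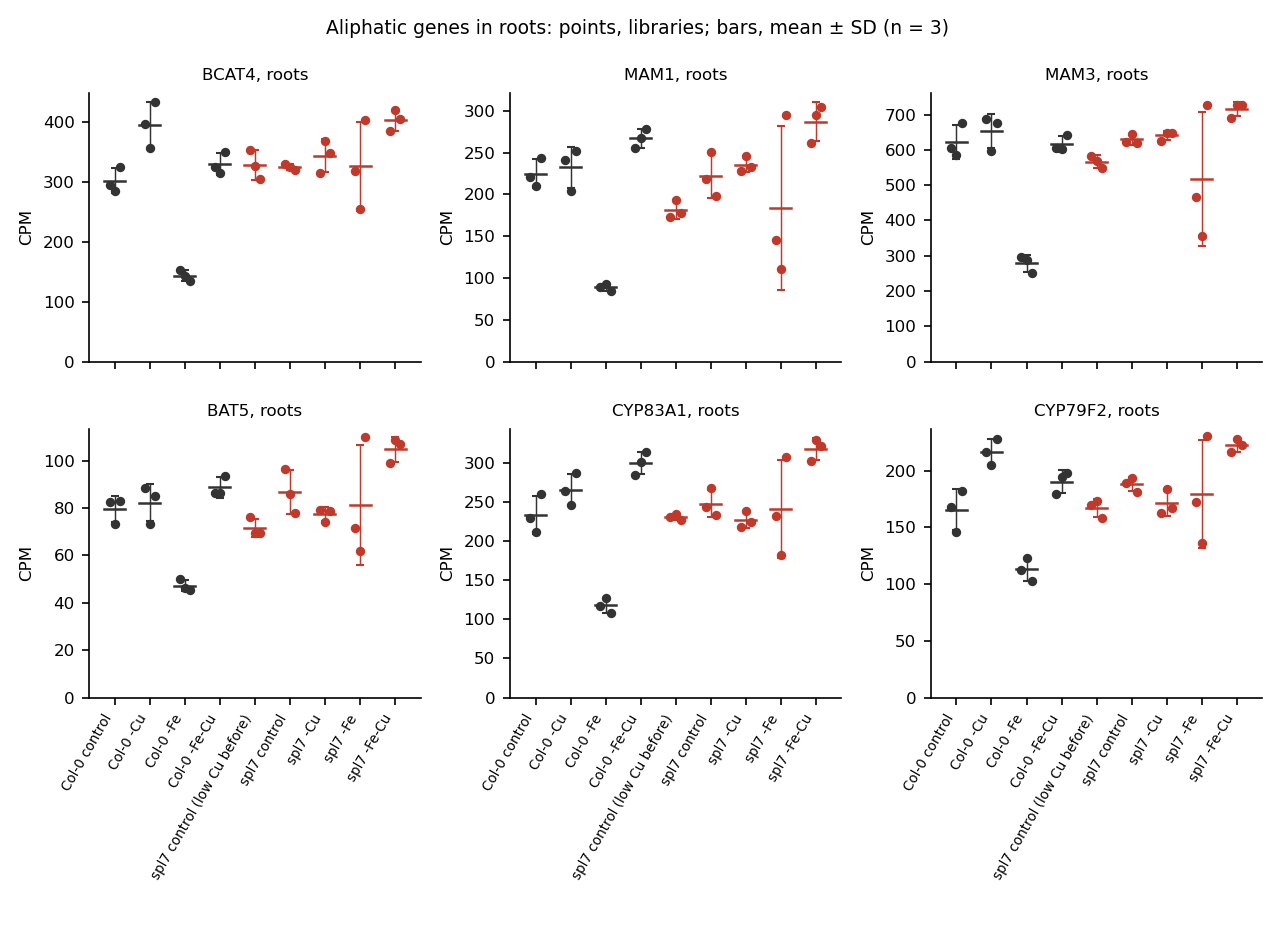
CPM in the 27 root libraries for 6 aliphatic genes, with group means and SD (n = 3), Col-0 in black and spl7 in red. The 3 iron-free Col-0 libraries form the lowest group in each panel, and in iron-free spl7 replicate 3 is the highest of its group in all 6.

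In iron-free spl7 roots, many aliphatic genes stood apart in replicate 3 from replicates 1 and 2. The calls given first are from the fit with all 3 replicates. Of 35 genes 6 rose and none fell, against 13.1% of all genes called (8.33% higher, 4.78% lower): GSTU20 (1.42 ± 0.34), FMOGS-OX3 (1.35 ± 0.33), FMOGS-OX1 (0.94 ± 0.27), MYB51 (0.75 ± 0.22), SOT17 (0.44 ± 0.12) and SOT16 (AT1G74100; 0.34 ± 0.11). GSTU20 stood at 114, 93.7 and 24.3 CPM without iron against 24.9, 28.9 and 33.0 CPM in the spl7 control, so that replicate 3 lay below the controls. MAM1 stood at 146, 111 and 295 CPM against 219, 251 and 198 CPM, replicates 1 and 2 below all controls and replicate 3 above them. IGMT1 split even further, at 17.9, 17.4 and 266 CPM against 147, 128 and 160 CPM.

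Without replicate 3 the same comparison called 17 genes, 6 higher and 11 lower, against 39.7% of all genes. The 6 that rose were still called. MAM1 (-0.80 ± 0.12), MAM3 (-0.62 ± 0.10), SOT18 (-0.52 ± 0.10) and IPMI2 (-0.44 ± 0.11) fell among 9 aliphatic genes, and IGMT1 (-3.05 ± 0.22) and CYP79B3 (-0.49 ± 0.14) on the indolic side. Without replicate 1 instead, no gene was called, without replicate 2 there were 3, and without replicate 1 or replicate 2 of the spl7 control there were 2 each. A fit of the compared groups alone called none. With 2 libraries left in the group, its spread is taken to be like that of the other groups.

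The response to iron deficiency differed between the genotypes at several genes, by a test of that difference. It was called for 7 of 35 genes, all less lowered or more raised in spl7, against 7.02% of all genes (4.05% positive, 2.97% negative): MYB51 (1.38 ± 0.30), BCAT4 (1.08 ± 0.16), MAM1 (1.07 ± 0.29), CYP83A1 (0.94 ± 0.17), MAM3 (0.88 ± 0.21), SOT17 (0.67 ± 0.17) and BAT5 (0.66 ± 0.19). Without replicate 3 of iron-free spl7 all 7 were called again with smaller values for MAM1 (0.55 ± 0.15), MAM3 (0.54 ± 0.13) and BAT5 (0.37 ± 0.12), and the count was 11 against 18% of all genes. Among the 4 added, IGMT1 was negative (-1.87 ± 0.27). Without replicate 3 of iron-free Col-0 the count was 4, without replicate 2 of iron-free spl7 it was 11, and in a fit of the 4 groups alone it was 1. The summed root markers reached 1230 to 1940 CPM in iron-free spl7 roots and 909 to 931 CPM in their controls, and the summed leaf markers 47.4 to 62.2 against 19.2 to 53.2 CPM. In replicates 1 and 2 the root marker sum, 1940 and 1510 CPM, rose with NRT2.1, a nitrate transporter gene. NRT2.1 stood at 1137, 819 and 68.5 CPM against 80.5, 102 and 113 CPM in the controls. In replicate 3 the sum was 1230 CPM, and PHO1, another root marker, stood at 907 CPM against 523 to 599 CPM in the controls. Of the 6 root markers 4 had lower fitted values without iron. CASP1, a gene of the endodermal barrier, stood at 56.5, 79.8 and 148 CPM against 132, 142 and 151 CPM, so replicates 1 and 2 lay below the controls. What part these play was not tested.

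The remaining spl7 root treatments gave no call. Without copper none of 35 genes was called (edgeR; 4 indolic genes and no other at an unadjusted p below 0.05; 2 by the DESeq2 Wald test) against 0.21% of all genes (0.191% higher, 0.0195% lower). With neither metal none was called either (13 at an unadjusted p below 0.05, 7 of them aliphatic; 0 by the Wald test) against 0.855% (0.479% higher, 0.376% lower), although a fit of the compared groups alone called 9. In that group MAM1 stood at 261, 296 and 305 CPM, above all 3 spl7 controls. Leaving out replicate 3 of iron-free spl7 gave 3 and 4 calls in these comparisons, against 1.72% and 2.49% of all genes. Leaving out replicate 3 of the spl7 control gave 2 in the first.

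**Figure D3:**
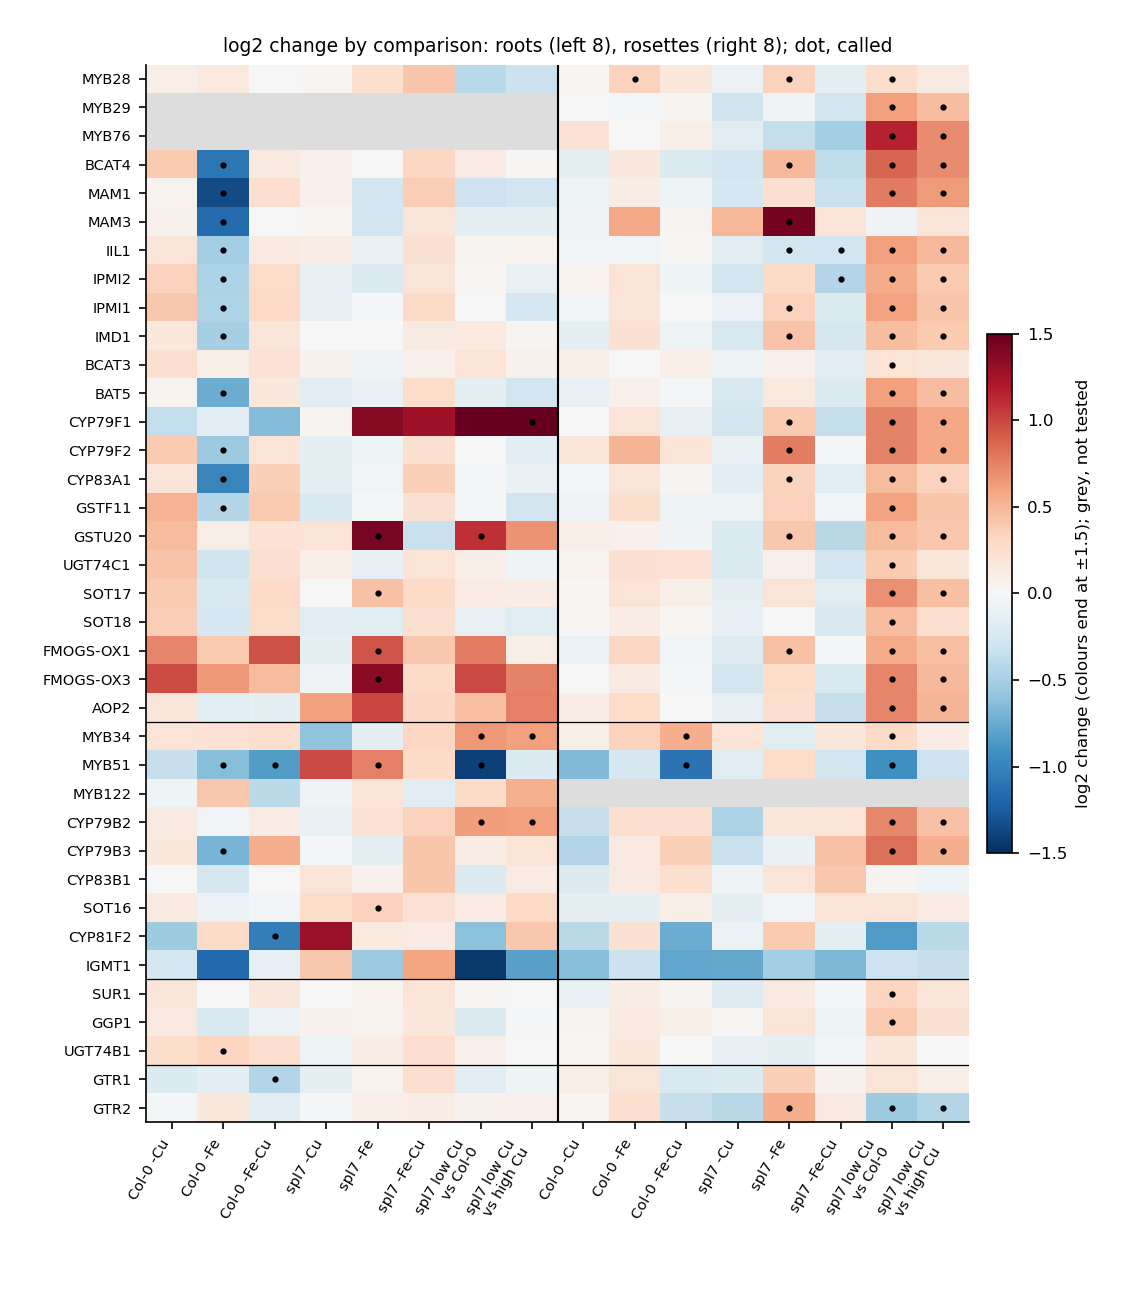
log2 changes of the 37 genes in 8 comparisons in roots and the same 8 in rosettes, in colour from -1.5 to 1.5, with a dot where the change was called and grey where a gene was not tested. In iron-free Col-0 roots 11 aliphatic rows carry a dot and are lower, and in rosettes of spl7 raised on low copper 22 carry one against Col-0 and are higher.

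In rosettes the largest response was that of spl7 raised on low copper. Against the Col-0 control, 22 of 23 aliphatic genes rose and none fell, and over all 36 genes tested 27 rose and 2 fell, against 42.2% of all genes called (20.6% higher, 21.6% lower). The aliphatic median was 0.60 on the log2 scale and the median of all genes 0. Against the spl7 control raised on 2.5 µM copper, which shares the genotype, 17 of 23 aliphatic genes rose and none fell, with 19 higher and 1 lower in all against 23.9% (11.9% higher, 12% lower), and an aliphatic median of 0.45. Both comparisons share the low-copper spl7 libraries, which alone carry the letters Ex, so that copper history and whatever Ex stands for cannot be told apart.

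The regulators rose with the enzymes. MYB29 stood at 93.1, 103 and 112 CPM in low-copper spl7, at 68.5, 69.4 and 64.2 CPM in Col-0 and at 77.4, 69.5 and 77.2 CPM in high-copper spl7. It rose by 0.61 ± 0.11 and 0.46 ± 0.11 against them. MYB76, at 10.5, 9.96 and 10.5 CPM against 4.43, 5.64 and 3.88 CPM in Col-0, rose 2.24-fold (1.16 ± 0.16, adjusted p = 4.24e-06), and by 0.71 ± 0.16 against high-copper spl7. MYB28 rose only against Col-0 (0.26 ± 0.09), where its libraries overlapped, and that call was lost under 4 of 11 other settings.

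Among the enzymes BCAT4 stood at 409, 444 and 446 CPM in low-copper spl7, 228, 246 and 235 CPM in Col-0 and 274, 266 and 254 CPM in high-copper spl7. Its rises were 0.87 ± 0.12 (adjusted p = 3.49e-06) and 0.71 ± 0.12 (adjusted p = 0.000144). MAM1 reached 812, 876 and 830 CPM against 444, 553 and 468 CPM in Col-0 (0.78 ± 0.10) and 560, 497 and 555 CPM in high-copper spl7 (0.64 ± 0.10). CYP79F1 reached 671, 742 and 716 CPM against 398, 481 and 395 CPM (0.74 ± 0.12) and 499, 462 and 468 CPM (0.58 ± 0.12). In these 3 genes the low-copper libraries lay above all libraries of both controls.

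MAM3, the copy with the higher level in roots, stayed out of this rise. It stood at 7.72, 7.94 and 8.06 CPM in low-copper spl7, within the range of the Col-0 control (7.35 to 9.30 CPM). The side-chain genes FMOGS-OX1, FMOGS-OX3 and AOP2 rose by 0.56, 0.73 and 0.73 against Col-0 and by 0.45, 0.49 and 0.51 against high-copper spl7. SUR1 (AT2G20610) and GGP1, which act in both branches, rose by 0.32 and 0.39 against Col-0 and were not called against high-copper spl7. Counts of calls stayed between 24 and 28 against Col-0 and between 14 and 20 against high-copper spl7 when single libraries were left out.

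The indolic branch and the transporters moved unevenly in the same rosettes. CYP79B2 stood at 63.9, 73.2 and 76.4 CPM against 48.1, 45.1 and 36.4 CPM in Col-0 (0.72 ± 0.16) and rose by 0.44 ± 0.16 against high-copper spl7. CYP79B3 rose by 0.83 ± 0.16 and 0.54 ± 0.16. MYB51 fell against Col-0, from 12.9, 7.63 and 8.03 CPM to 4.58, 4.98 and 5.61 CPM (-0.92 ± 0.32), and MYB34 rose there by 0.30 ± 0.12, a call lost under 8 of 11 other settings. GTR2 fell from 88.3, 88.2 and 100 CPM to 50.5, 65.4 and 76.3 CPM (-0.53 ± 0.14) and by 0.44 ± 0.14 against high-copper spl7, while GTR1 was not called.

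Further synthesis genes of the same rosettes were called about as often as genes of any kind. Against Col-0, 4 of 13 tested rose and 1 fell, against 42.2% of all genes called (20.6% higher, 21.6% lower): FMOGS-OX2 stood at 46.5, 51.1 and 58.0 CPM against 10.9, 11.1 and 10.8 CPM (2.24 ± 0.19), FMOGS-OX4 rose by 1.39 ± 0.20 and GS-OH by 0.97 ± 0.11. Of the 5 supply genes APK1 and APK2, kinases that make the sulfate donor of the last step, rose by 0.47 ± 0.10 and 0.67 ± 0.12. Against high-copper spl7 the same 5 genes rose by 1.34, 1.61, 0.71, 0.33 and 0.46.

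**Figure D4:**
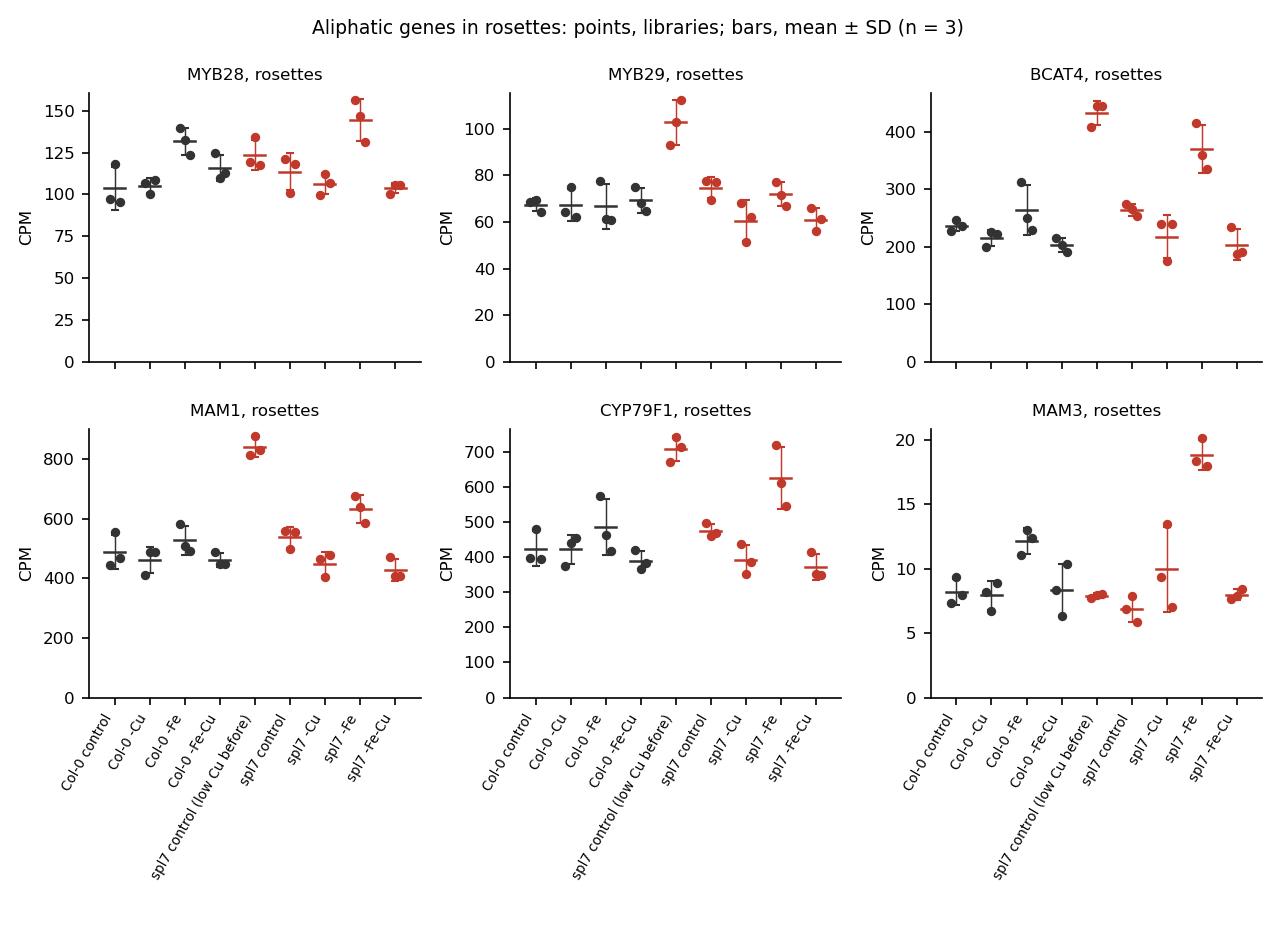
CPM in the 27 rosette libraries for 6 aliphatic genes, with group means and SD (n = 3), Col-0 in black and spl7 in red. MYB29, BCAT4, MAM1 and CYP79F1 have their highest group mean in spl7 raised on low copper, and MAM3 has it in iron-free spl7.

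Roots of the same low-copper spl7 plants showed little of this. Against Col-0, GSTU20 (1.09 ± 0.34), MYB34 (0.65 ± 0.17) and CYP79B2 (0.63 ± 0.15) rose and MYB51 fell (-1.40 ± 0.22), 4 of 35 against 13.3% of all genes (6.75% higher, 6.5% lower), and the aliphatic median was 0.04. MYB34 stood at 102, 86.3 and 63.5 CPM against 56.1, 47.2 and 57.2 CPM, without overlap. MYB51 stood at 27.1, 25.6 and 16.4 CPM against 51.9, 75.8 and 54.2 CPM, but the spl7 control raised on high copper was also low, at 26.4, 17.4 and 36.0 CPM. CYP79B2 stood at 305, 300 and 169 CPM against 139, 182 and 180 CPM, with replicate 3 inside the control range. IGMT1 was not called but stood at 94.6, 96.5 and 56.1 CPM against 205, 267 and 202 CPM in Col-0. It stood at 147, 128 and 160 CPM in high-copper spl7, and its low-copper libraries lay below both controls. MYB28 was not called either, at 60.2 to 64.3 CPM against 65.3 to 92.5 CPM in Col-0. Of the further genes named above for rosettes, FMOGS-OX2 stood at 19.5, 18.5 and 7.68 CPM in these roots against 3.00 to 3.77 CPM in Col-0. FMOGS-OX4 stood at 134, 110 and 83.7 against 44.1 to 65.6 CPM, and GS-OH at 351, 364 and 307 against 210 to 264 CPM. APK1 and APK2 overlapped with Col-0.

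Against high-copper spl7 the roots had 3 calls, all higher, against 4.36% of all genes (2.97% higher, 1.39% lower): CYP79F1 (2.79 ± 0.73), CYP79B2 (0.62 ± 0.15) and MYB34 (0.61 ± 0.17). CYP79F1 stood at 4.67, 1.62 and 1.09 CPM in libraries whose leaf markers summed to 186, 99.8 and 61.1 CPM, and at 0.285, 0.234 and 0.529 CPM where they summed to 19.2, 20.2 and 53.2 CPM. Of the 5 leaf markers 4 were called higher in this comparison, and their part in the CYP79F1 value was not tested. The 3 calls became 0 without replicate 1 of low-copper spl7 or replicate 1 or 2 of the spl7 control. There was 1 call without replicate 2 of low-copper spl7. Leaving out replicate 3 of iron-free spl7 gave 6 calls, against 10.9% of all genes. The comparison with Col-0 gave 2 calls without replicate 2 of low-copper spl7. It gave 10 without replicate 3 of iron-free spl7, against 24.4% of all genes.

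Without iron the aliphatic genes of rosettes were on balance higher. In spl7 rosettes 10 of 23 aliphatic genes rose and 1 fell, against 27.4% of all genes called (12.6% higher, 14.8% lower). Over all 36 genes tested 11 rose and 1 fell, and that share called was near the background. The aliphatic median was 0.29 and that of all genes 0.01. MAM3 led, at 18.3, 20.1 and 18 CPM against 6.90, 7.88 and 5.87 CPM in the spl7 control (1.44 ± 0.18, adjusted p = 3.74e-06). CYP79F2, also higher in roots than in rosettes, stood at 12.7, 13.8 and 10.4 CPM against 7.60, 7.02 and 7.04 CPM (0.77 ± 0.16). No iron-free library overlapped with the controls in either gene.

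MYB28 rose in the same rosettes (0.35 ± 0.09), from a mean of 113 CPM to 156, 147 and 131 CPM, and BCAT4 by 0.49 ± 0.12, CYP79F1 by 0.39 ± 0.12 and CYP83A1 by 0.33 ± 0.09. GTR2 rose from 91.8, 85.8 and 83.2 CPM to 143, 124 and 112 CPM (0.54 ± 0.14). IIL1 fell by 0.28 ± 0.08, and no indolic gene was called (edgeR, 0 of 8; 0 at an unadjusted p below 0.05; 0 by the DESeq2 Wald test). In these libraries the summed leaf markers were 17800 to 22400 CPM against 28600 to 32900 CPM in the controls, with 5 of 5 called lower, and the summed root markers 55.6 to 59 against 40.5 to 42.4 CPM, with 2 of 3 tested called higher. Their part in the MAM3 and CYP79F2 values was not tested. Without replicate 2 of the spl7 control, or replicate 1 of the iron-free group, 8 genes were called.

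In Col-0 rosettes without iron 19 of 23 aliphatic values were positive, with a median of 0.19, and 1 was called. MYB28 rose from 97.2, 118 and 95.3 CPM to 139, 132 and 123 CPM (0.35 ± 0.09, adjusted p = 0.0333) and was the only one of 36 genes called, against 2.41% of all genes (1.52% higher, 0.889% lower). Its call was lost without replicate 1 or 3 of the control, or without replicate 1 or 2 of the iron-free group. MAM3 stood at 11, 13 and 12.4 CPM against 7.35, 9.30 and 7.98 CPM, groups that did not overlap, and was not called. The response of spl7 exceeded that of Col-0 by a test of the difference for MAM3 alone (0.87 ± 0.25, adjusted p = 0.0319), 1 of 36 genes against 8.46% (3.4% positive, 5.06% negative), and that call was lost in 8 of 12 fits that each left out 1 of its libraries.

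With neither metal, rosettes of Col-0 had 2 calls in 36 against 7.77% of all genes (3.96% higher, 3.81% lower): MYB34 rose from 20.4, 17.7 and 18.6 CPM to 31.1, 27.4 and 24.5 CPM (0.54 ± 0.12) and MYB51 fell to 4.34, 6.27 and 2.79 CPM (-1.11 ± 0.33). The MYB51 call was lost when replicate 1 or 3 of either group was left out, and without replicate 2 of the control there were 4 calls. In spl7, IIL1 (-0.29 ± 0.08) and IPMI2 (-0.44 ± 0.12) fell, 2 of 36 against 2.11% (0.899% higher, 1.21% lower), and neither remained called when any 1 of the libraries compared was left out. The DESeq2 Wald test called 7 genes there, and a fit of the compared groups alone 8. In Col-0 rosettes the difference from the sum of the single deficiencies was called for none of 36 genes (edgeR; 5 at an unadjusted p below 0.05; 1 by the Wald test) against 4.52% (2.64% positive, 1.88% negative).

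Copper deficiency by itself gave no call in rosettes of either genotype. In Col-0, none of 36 was called against 0.02% of all genes, 0.005% higher and 0.015% lower (edgeR; 3 indolic genes and no other at an unadjusted p below 0.05; 0 by the Wald test). In spl7, none was called against 1.12%, 0.699% higher and 0.425% lower (edgeR; 13 at an unadjusted p below 0.05, 10 of them aliphatic; 0 by the Wald test), while 22 of 23 aliphatic values were negative with a median of -0.17. Leaving out replicate 3 of copper-free spl7 rosettes gave 2 calls there, and leaving out replicate 1 gave 1.

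**Figure D5:**
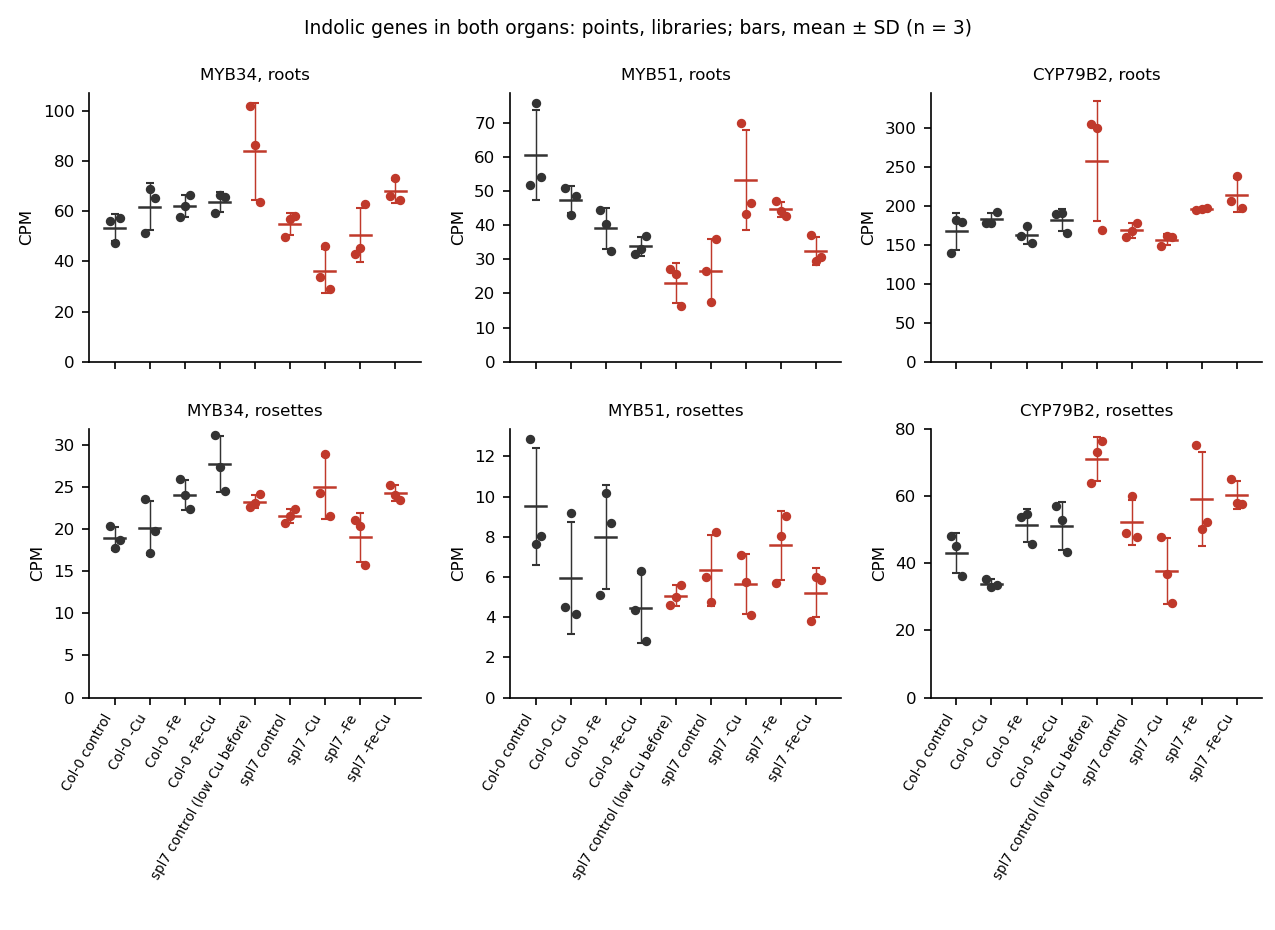
CPM in roots (upper row) and rosettes (lower row) for MYB34, MYB51 and CYP79B2, with group means and SD (n = 3), Col-0 in black and spl7 in red. MYB51 is lower in both spl7 controls than in the Col-0 control in roots, and CYP79B2 has its highest group mean in spl7 raised on low copper in both organs.

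In rosettes the enzymes of the aliphatic branch varied together from library to library, and in roots only part of them did. Over the 27 libraries the median Pearson r of log2(CPM + 1) between 2 of the 20 aliphatic enzyme genes was 0.81 in rosettes and 0.52 in roots, and after the group means were removed 0.69 and 0.41. Between the 6 indolic enzyme genes it was 0.22 in rosettes and 0.20 in roots, and 0.33 and 0.32 after the group means were removed. Between the branches it was 0.19 and 0.27, and then 0.30 and 0.22, so in roots the gap between the aliphatic and the indolic value narrowed. Before the group means were removed, the quartiles of the aliphatic values were 0.09 and 0.86 in roots and 0.68 and 0.89 in rosettes. These values share libraries and depth, and the root values include replicate 3 of iron-free spl7, so they are a description only.

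Single genes departed from their branch. In roots the aliphatic genes GSTU20, FMOGS-OX3 and CYP79F1 had a median r of -0.04, -0.09 and -0.03 with the other aliphatic enzymes. MAM1 and MAM3 had r = 0.97 in roots and 0.17 in rosettes, and CYP79F1 and CYP79F2 -0.04 in roots, where CYP79F1 is near 0, and 0.79 in rosettes. CYP79B3, an indolic gene, had a median r of 0.75 with the aliphatic enzymes in roots. The genes most like the aliphatic enzymes by median r were CYP79F2 (0.90), IIL1 (0.87) and IPMI2 (0.86) in roots and CYP79F1 (0.91), BCAT4 (0.90) and CYP83A1 (0.89) in rosettes. MYB29 and MYB28 had a median r of 0.76 and 0.64 with them in rosettes, and MYB28 0.19 in roots.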

How the data were processed

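The authors deposited whole-number read counts per gene for 54 libraries, made with Bowtie, HTSeq and TAIR10 per the submitters' processing notes; versions, the strand setting and the handling of reads with several matches are not given in the sources used here. Without a stated strand, reads of overlapping antisense genes cannot be told apart. Counts were tested with edgeR 4.0.16 (limma 3.58.1, R 4.3.3): filterByExpr (minimum count 10, minimum total 15), TMM scaling, 1 quasi-likelihood fit per organ over its 9 groups and 1 joint fit for the organ contrast, and Benjamini-Hochberg adjusted p below 0.05 over all genes. There were 10 comparisons per organ and 1 between organs, 21 in all. CPM values use TMM-scaled library sizes.

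Depths of 9254761 to 20061836 counts per library set the precision. On simulated counts with 200 genes changed 2-fold and all others unchanged, the root test for iron deficiency in Col-0 found 81.5% over 20320 genes. The rosette test found 81% over 19837, and there were 3 and 8 false calls. The real root comparison called 20.4% of all genes, so these shares need not hold for it. Alternatives were DESeq2 1.42.0 (Wald test and size factors), no filter, a replicate block, the compared groups alone, and each library left out. Sequences came from RefSeq TAIR10.1 with Python 3.11.15, pandas 2.3.3 and Biopython 1.88, and plots from matplotlib 3.10.9.

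The genes and lists were chosen with earlier results of these data known. Every one of the 37 genes could be named; values per library are given for called genes with the largest changes, up to 4 per subgroup, and for MYB regulators and GTR1 and GTR2, and further pathway genes are named up to 3 per list and comparison by size of change. Other values shown, such as those of genes that were not called, were chosen after they were seen.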

Additional observations from a re-analysis of the deposited data

Results flagged for a closer look

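In Col-0 roots 6 genes differed between the response to both deficiencies and the sum of the single responses, by an interaction term in edgeR: BCAT4 (0.81), MAM1 (1.54), MAM3 (1.08), BAT5 (0.86), CYP83A1 (1.16) and CYP79B3 (1.08), all on the log2 scale. Without replicate 3 of iron-free spl7 roots, which stands apart, the values were 0.83, 1.56, 1.09, 0.87, 1.17 and 1.1.

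In roots 7 genes differed between spl7 and Col-0 in the response to iron deficiency, by the same kind of test: BCAT4 (1.08), MAM1 (1.07), MAM3 (0.88), BAT5 (0.66), CYP83A1 (0.94), SOT17 (0.67) and MYB51 (1.38). Without replicate 3 of iron-free spl7 roots they were 0.89, 0.55, 0.54, 0.37, 0.73, 0.67 and 1.41, and called in each case. In rosettes MAM3 differed (0.87).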

How the results depend on the processing

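Of 143 called pairs of gene and comparison, 85 kept the call in every alternative run, 58 lost it in at least 1 and 0 reversed; the cause was not tested. The DESeq2 Wald test called 1 gene in copper-free Col-0 roots (0 in edgeR), 6 in doubly deficient Col-0 roots (3), 2 in copper-free spl7 roots (0), 7 in doubly deficient spl7 rosettes (2), 1 for iron by copper in Col-0 rosettes (0) and 2 for the genotype difference in rosettes (1). Without the filter on low counts, copper-free spl7 roots had 1 call and doubly deficient spl7 rosettes 1. The compared groups alone gave 9 calls in doubly deficient Col-0 roots, 0 in iron-free spl7 roots (6), 9 in doubly deficient spl7 roots (0), 5 in low-copper against high-copper spl7 roots (3), 11 for iron by copper in roots (6), 1 for the genotype difference in roots (7), 0 in iron-free Col-0 rosettes (1), 8 in doubly deficient spl7 rosettes, 1 for iron by copper in rosettes and 2 for the genotype difference there. With the replicate number as a block, doubly deficient spl7 rosettes had 0 calls and the rosette genotype difference 2, and the other counts stayed within 1.5 times; same-numbered libraries correlated at a median of 0.01 in roots (-0.4 to 0.31) and 0 in rosettes (-0.31 to 0.31), so the numbers were not taken as pairs. Leaving out single libraries gave ranges in roots of 0 to 4 (Col-0 without copper), 9 to 19 (without iron), 0 to 11 (without both), 0 to 3, 0 to 17 and 0 to 4 (the same in spl7), 2 to 10 and 0 to 6 (low-copper spl7 against Col-0 and against spl7), 5 to 12 (iron by copper) and 4 to 11 (genotype difference). In rosettes, in the same order, they were 0 to 0, 0 to 1, 1 to 4, 0 to 2, 8 to 14, 0 to 1, 24 to 28, 14 to 20, 0 to 1 and 0 to 1, and 30 to 31 between organs. Genes of a few counts, such as MYB29 in roots, are limited by depth.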

Other observations

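Genes outside glucosinolate synthesis that use its products or its indolic intermediate moved in the same libraries. CYP71A12, CYP71A13 and PAD3 lead indole-3-acetaldoxime to the phytoalexin camalexin. In iron-free spl7 roots CYP71A12 stood at 86.0, 64.1 and 4.41 CPM against 3.74 to 11.9 CPM in the control, and PAD3 at 60.6, 43.0 and 8.32 CPM against 5.53 to 12.2 CPM. In both genes replicates 1 and 2 lay above the controls and replicate 3 among them. CYP71A13 stood at 2.44, 2.23 and 0.0816 CPM there, and at 0, 0.0778 and 0 CPM in the control. In iron-free spl7 rosettes CYP71A13 stood at 25.6, 24.0 and 23.8 CPM against 0.493, 1.19 and 0.754 CPM (4.88 ± 0.66). PAD3 stood at 2.33, 2.04 and 2.87 CPM there against 2.96, 4.24 and 1.76 CPM. CYP71A12 stood at 0.637 to 1.23 CPM against 0.493 to 0.67 CPM. CYP71A13 also reached 13.4, 5.98 and 5.69 CPM in iron-free Col-0 rosettes, against 0.38, 4.58 and 0.27 CPM in their control. In Col-0 roots CYP71A12 stood at 37.88, 30.82 and 26.65 CPM without iron against 6.85 to 12.9 CPM. It stood at 34.8, 66.9 and 29.2 CPM in low-copper spl7 roots.

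Of 10 genes of glucosinolate breakdown tested in rosettes, 2 rose and 4 fell in spl7 raised on low copper against Col-0, where 42.2% of all genes were called (20.6% higher, 21.6% lower). The nitrile-specifier gene NSP1 rose from 39.5, 42.2 and 31.5 CPM to 105, 92.2 and 92.7 CPM (1.36 ± 0.13), NSP4 fell by 1.75 ± 0.48 and the atypical myrosinase gene PEN2 by 0.56 ± 0.12. In roots, GTR3 stood at 143 to 150 CPM in the Col-0 control and 90.8 to 94.5 CPM in high-copper spl7. Without iron it stood at 116, 108 and 104 CPM in Col-0, below those controls, and at 120, 102 and 146 CPM in spl7, above its own. Between organs, the myrosinase gene TGG1 stood at 4.02 CPM in roots and 3390 in rosettes, and TGG4 at 132 and 0.124 CPM, on the joint scale.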
